A study of Mus musculus with 18 samples.

Results

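The comparison described here sets endothelial cells of the Apex of the mouse heart against those of the heart region whose libraries are titled OR. Its members were chosen by label alone, as the 3 Apex and 3 OR libraries, which are 6 of the 12 heart libraries and 6 of the 18 libraries of the series. Endothelial cells are the cells that line blood vessels and the heart chambers, and the labels give them as WT cells of adult male mice at homeostasis, with no treatment and no transgene. By their labels, Apex and OR libraries share all of this and differ only in the region of the heart. The count table and the design text write OZ where the titles write OR, and no label spells either out. The labels do not say how the cells were isolated, or whether the 3 libraries of a region came from separate animals, so that p-values measure only the spread between these libraries, which may be technical.

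Each library was made from poly(A) RNA that was reverse-transcribed with oligo(dT) primers, PCR-amplified as full-length cDNA, fragmented and read in pairs. Levels are given as CPM, each count over its library total with that total set by edgeR's TMM factor, which makes the bulk of genes equal between libraries. Changes are log2 fold changes of Apex over OR with a standard error (SE), tested with edgeR's quasi-likelihood test. A gene counts as changed at an adjusted p under 0.05 over all 13099 genes tested.

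Most endothelial cells of an adult heart are capillary cells, which seldom divide. They carry fatty acids from the blood to heart muscle, and they respond to interferons, the secreted signals that switch on antiviral genes through the JAK and STAT proteins. A cell that does divide builds its mitotic spindle and chromosome-segregation proteins late in the cycle, and many of their genes carry a short element called CHR and CCAAT boxes in the promoter, where the DREAM and MuvB complexes and the factor NF-Y bind. Interferon genes often carry an ISRE, the element bound by STAT and IRF factors, and clock genes an E-box, the element bound by CLOCK and BMAL1.

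Promoters of 6 genes are shown because these genes passed the test and their windows hold the element known for their group: Mki67, Top2a and Kif11 for cell division, Ddx60 and Rsad2 for interferon responses and Cry1 for the clock. They were picked for holding it and do not stand for the other called genes. Each is the stretch of 250 bases that ends just before the gene's start, from RefSeq on build GRCm38.p6, read on the strand of the gene. Capitals mark a CHR (TTTGAA) in the first 3, an ISRE core (GAAA repeated after any 2 bases) in Ddx60 and Rsad2 and an E-box (CACGTG) in Cry1, each searched on both strands. The windows lie at chr7:135716380-135716629 (minus strand) for Mki67, chr11:99024190-99024439 (minus) for Top2a, chr19:37376132-37376381 (plus) for Kif11, chr8:61927837-61928086 (plus) for Ddx60, chr12:26456453-26456702 (minus) for Rsad2 and chr10:85185055-85185304 (minus) for Cry1.
Mki67: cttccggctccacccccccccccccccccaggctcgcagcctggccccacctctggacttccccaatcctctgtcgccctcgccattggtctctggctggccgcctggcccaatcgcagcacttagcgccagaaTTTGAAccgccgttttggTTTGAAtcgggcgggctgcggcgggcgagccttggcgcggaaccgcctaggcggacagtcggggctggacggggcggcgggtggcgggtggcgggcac
Top2a: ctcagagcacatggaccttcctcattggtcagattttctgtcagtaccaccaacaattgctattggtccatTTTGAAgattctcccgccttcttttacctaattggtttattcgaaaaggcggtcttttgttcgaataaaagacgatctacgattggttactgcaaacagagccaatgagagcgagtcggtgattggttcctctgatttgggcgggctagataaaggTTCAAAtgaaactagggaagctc
Kif11: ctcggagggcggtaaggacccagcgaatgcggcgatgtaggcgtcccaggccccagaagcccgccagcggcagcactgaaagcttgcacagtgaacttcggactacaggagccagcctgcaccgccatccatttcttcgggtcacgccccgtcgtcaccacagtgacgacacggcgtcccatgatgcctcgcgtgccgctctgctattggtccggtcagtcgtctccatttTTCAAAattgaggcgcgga
Ddx60: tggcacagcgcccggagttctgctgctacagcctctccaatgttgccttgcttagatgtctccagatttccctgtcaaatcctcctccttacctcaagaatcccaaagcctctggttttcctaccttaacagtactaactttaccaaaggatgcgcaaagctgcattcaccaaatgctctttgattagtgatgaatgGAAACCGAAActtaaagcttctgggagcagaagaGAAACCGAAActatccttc
Rsad2: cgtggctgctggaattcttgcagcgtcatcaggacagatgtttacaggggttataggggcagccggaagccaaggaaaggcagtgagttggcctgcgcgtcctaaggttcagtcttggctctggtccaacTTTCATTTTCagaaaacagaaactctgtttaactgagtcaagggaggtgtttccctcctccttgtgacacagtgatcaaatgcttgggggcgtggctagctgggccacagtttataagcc
Cry1: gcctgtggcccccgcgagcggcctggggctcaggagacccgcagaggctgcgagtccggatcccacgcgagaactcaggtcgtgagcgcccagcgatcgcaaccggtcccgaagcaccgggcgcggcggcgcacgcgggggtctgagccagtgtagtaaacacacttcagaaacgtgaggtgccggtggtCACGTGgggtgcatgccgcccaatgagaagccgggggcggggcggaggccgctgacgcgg
Mki67, Top2a and Ddx60 hold 2 matches each, and Kif11, Rsad2 and Cry1 hold 1 each.

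Over the lists that these genes belong to, the same windows could be read for 50 of the mitotic genes, 30 of the interferon-induced effectors and 18 of the clock genes. A CHR stood in 36% of the mitotic genes, against 12.9% of all 10327 tested genes with a window, and a CCAAT box, searched as CCAAT, in 72% against 40.9%. An ISRE core stood in 33.3% of the interferon-induced effectors, against 3.23% of all genes, and an E-box in 27.8% of the clock genes, against 9.69%. Among the called genes with a window, a CHR stood in 4 of 8 mitotic genes, an ISRE core in 2 of 8 effectors, a share of 25%, and an E-box in 1 of 2 clock genes. Motifs were searched one at a time, so matches of different motifs may overlap. A match is a description of these letters and no evidence of binding.

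Total counts ran from 26192047 to 27720154 in the Apex libraries and from 21590400 to 27520396 in the OR libraries. The Apex 1 library stood apart from the other 5 on the first principal component of log2 CPM, at -50.81 against -6.63 and 8.08 for the other Apex libraries and 6.99 to 23.25 for the OR libraries. That component held 37.08% of the variance. The defining endothelial markers were abundant in all 6 libraries. Cdh5, which encodes the junction protein VE-cadherin, had 3021, 2905 and 2747 CPM in Apex and 2721, 2831 and 2550.1 CPM in OR, and Pecam1, another junction gene, had 2223, 1919 and 1835 CPM in Apex and 1725, 1856 and 1683 CPM in OR. Neither passed the test, with adjusted p of 0.623 and 0.353. Ptprc, the common leukocyte gene, lay between 0.806 and 1.43 CPM in Apex and between 0.372 and 0.812 CPM in OR, and did not pass either.

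In all, 956 of 13099 genes passed the test, which is 7.3%. Of these, 398 were higher in Apex (3.04%) and 558 lower (4.26%), and 27 differed by at least 1 on the log2 scale. Counts of called genes in every list below stand against the shares of 3.04% and 4.26%. The lists were drawn up with earlier results of these data known, so that these counts are descriptions. The higher genes included those of cell division and of interferon responses, and the lower genes those of the ribosome and the respiratory chain. None of the 956 overlapped between the regions, a property that 29.7% of all genes tested shared. The number of calls rested on single libraries: it was 474 without Apex 1, 0 without Apex 2, 881 without Apex 3, 372 without OR 1, 425 without OR 2 and 1, Mki67, without OR 3. With all 12 heart libraries in 1 edgeR model, which takes the spread of LV and VS libraries into the error as well, 0 genes passed and 1642 had an unadjusted p under 0.05, of which 820 were higher in Apex (6.06%) and 822 lower (6.07%).

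Transcript length moved with the calls. Effective lengths were recovered from the ratio of the deposited counts to the deposited TPM. They ran from 34 to 152916 bases and had a Spearman correlation of 0.52 with GENCODE transcript lengths, so that lengths in bases are approximate. In the shortest 20% of genes, up to 1598 bases, 513 genes were lower in Apex (19.6%) and 5 higher (0.191%), with a median log2 fold change of -0.33. In the longest 20%, from 5022 bases, 2 genes were lower (0.0763%) and 256 higher (9.77%), with a median of 0.22. Across 13097 genes the Spearman correlation of fold change with effective length was 0.56, as a description over genes that share the same 6 libraries. The median level of the longest 20% minus that of the shortest, on the log2 scale relative to the mean of the heart libraries, was 0.296, 0.200 and 0.115 in the Apex libraries and -0.291, -0.253 and -0.555 in the OR libraries. The other regions were not uniform, with 0.279, 0.119 and 0.083 in LV and 0.747, -0.543 and -0.215 in VS, so that the 3 VS libraries spanned a wider range than Apex and OR together.

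**Figure D1:**
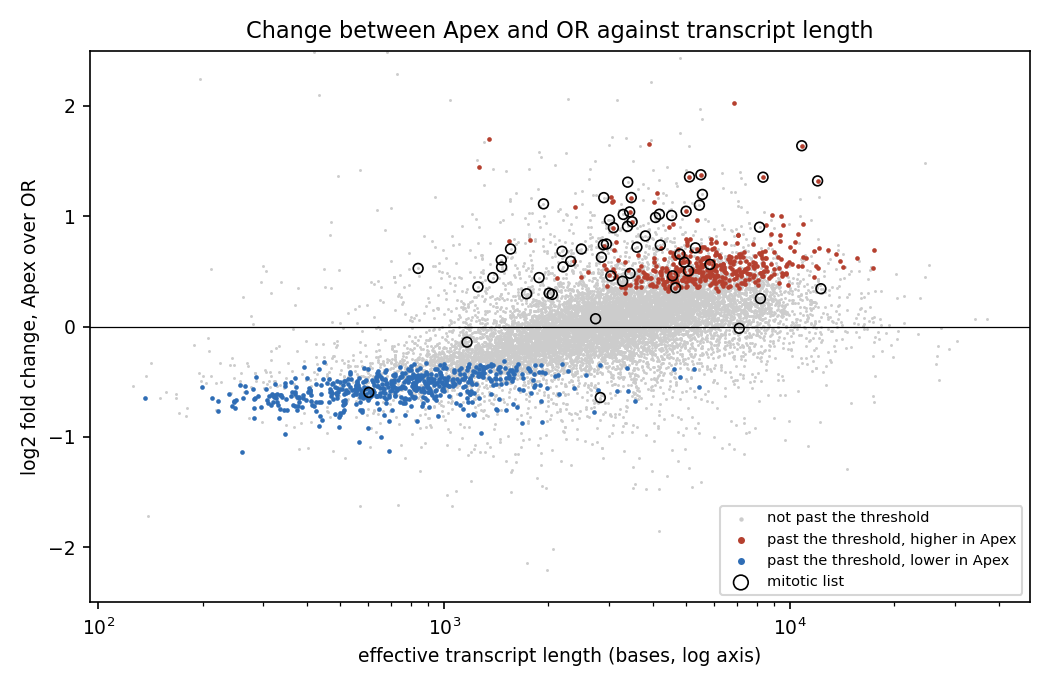
Each point is a gene, with its effective transcript length in bases on a log axis and its log2 fold change of Apex over OR; red and blue points passed the test and open circles are the mitotic list. Of the genes with a length, 13080 are drawn and 17 lie outside the axes. Blue points gather at short and red points at long transcripts, and 55 of the 59 mitotic genes lie above 0.

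When a smooth trend of counts on length was fitted within each library and carried as an offset, 0 genes passed in edgeR's quasi-likelihood test, and the smallest adjusted p was 0.0974. At an unadjusted p under 0.05 there were 1321 genes, of which 731 genes (5.58%) were higher in Apex and 590 (4.5%) lower. The main groups of genes below are given as measured and with these effective-length offsets. With offsets from GENCODE lengths instead, chosen after seeing the data, 468 genes passed, 231 higher and 237 lower in Apex. What gave rise to the length trend was not tested.

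**Figure D2:**
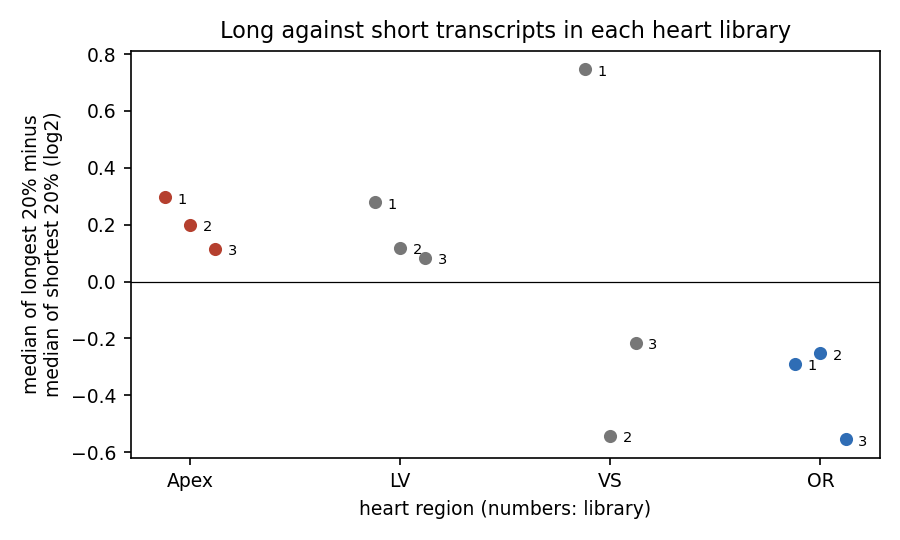
For each of the 12 heart libraries, the median log2 level of the longest 20% of genes minus that of the shortest 20%, numbered by library. All 3 Apex libraries sit above 0, between 0.115 and 0.296, and all 3 OR libraries below 0, between -0.555 and -0.253, while VS runs from -0.543 to 0.747.

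Genes of the mitotic spindle and of chromosome segregation were higher in Apex. Of the 59 on the list, all of which were tested, 10 rose and 0 fell, against 3.04% and 4.26% of all genes, and the median log2 fold change was 0.70, against 0.01 over all genes. In 39 of the 59 every Apex library lay above every OR library, as in 14.6% of all genes, and in 2 every one lay below. Their summed level was 509 to 577 CPM in Apex and 344 to 458 CPM in OR. In bulk samples such as these, more dividing cells and more RNA of these genes per cell cannot be told apart.

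Mki67, whose protein coats mitotic chromosomes and marks cycling cells, had 22.8, 21.4 and 21.7 CPM in Apex and 6.09, 5.01 and 10 CPM in OR. The 3 Apex libraries nearly coincided and all lay above the highest OR library, and the log2 fold change was 1.64 (SE 0.23, edgeR adjusted p = 0.0128). Top2a, which encodes a topoisomerase of dividing cells, had 26.9, 19.8 and 24.3 CPM in Apex and 7.16, 9.45 and 10.7 CPM in OR, a change of 1.38 (SE 0.18, adjusted p = 0.0128). Kif11, the motor that pushes spindle poles apart, had 5.68, 6.16 and 6.38 CPM in Apex and 1.72, 2.10 and 3.25 CPM in OR, a change of 1.36 (SE 0.27, adjusted p = 0.0193). These are the 3 genes whose CHR matches are printed above. Tpx2, which nucleates spindle microtubules, had 11.2, 9.32 and 10.8 CPM in Apex and 4.04, 4.97 and 4.87 CPM in OR, a change of 1.17 (SE 0.18, adjusted p = 0.0128).

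The other 6 called mitotic genes moved by similar amounts. The kinetochore genes Cenpf and Cenpe rose by 1.32 and 1.35 on the log2 scale. Kif23 and Prc1, which bundle the microtubules of the central spindle, rose by 1.04 and 0.90, and Anln, a scaffold of the contractile ring, by 1.05. Ccna2, the cyclin of S phase and G2, had 13.0, 14.4 and 16.7 CPM in Apex and 6.78, 7.96 and 8.04 CPM in OR, a change of 0.95. Prc1 was uneven in OR, with 14.5, 14.8 and 15.5 CPM in Apex but 5.02, 8.57 and 10.4 CPM in OR.

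**Figure D3:**
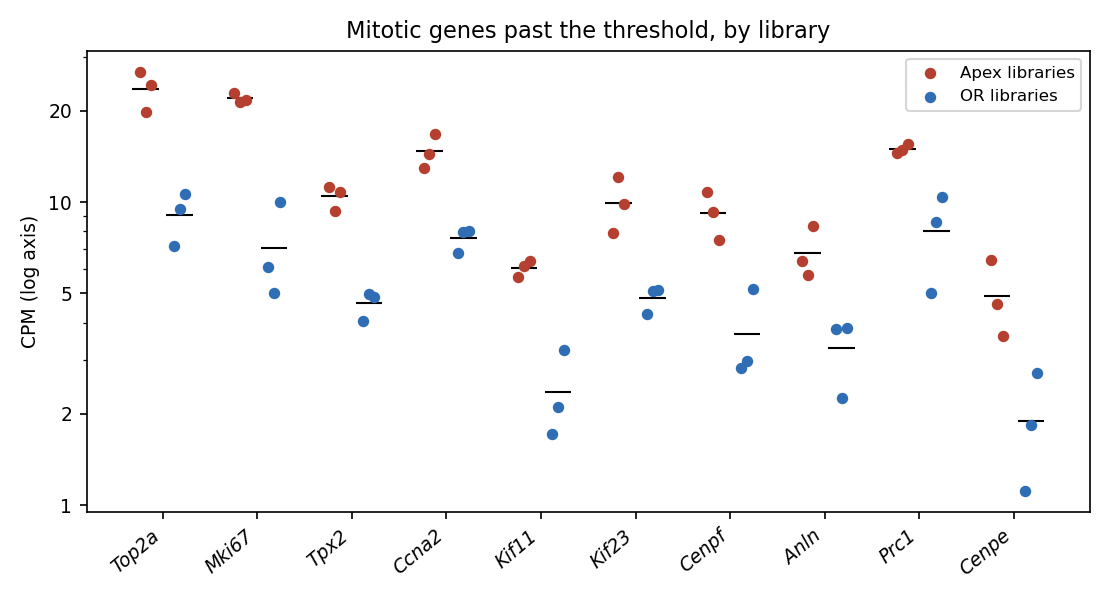
CPM on a log axis for the 10 mitotic genes that passed the test, with 1 point per library, Apex in red on the left and OR in blue on the right of each pair, and a bar at the mean. No gene overlaps between the regions, which holds for every called gene. Mki67 sits between 21.4 and 22.8 CPM in Apex and between 5.01 and 10 CPM in OR.

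The mitotic genes have a median effective length of 3389 bases, near the 2960 bases of all genes tested, and their median change stayed at 0.70 with length offsets, against -0.00 over all genes. With those offsets 36 of the 59 had an unadjusted p under 0.05 and a higher level in Apex, as did 5.58% of all genes, and 0 had a lower one. The log2 fold change of Mki67 was 1.37 with offsets and that of Top2a 1.17. The number of list members called was 6 without Apex 1, 0 without Apex 2, 8 without Apex 3, 4 without OR 1, 4 without OR 2 and 1 without OR 3, and 0 with length offsets or with all 12 heart libraries in the model.

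Genes of DNA replication and S phase gave few calls. Of 53 tested, 1 rose and 0 fell, against 3.04% and 4.26% of all genes, with a median log2 fold change of 0.07. The one that rose was Atad2, a chromatin ATPase of replicating cells, at 18.6, 20.5 and 19.4 CPM in Apex and 15.1, 12.4 and 13.5 CPM in OR, a change of 0.51 (SE 0.14, edgeR adjusted p = 0.049). The difference between the replication and the mitotic list was not tested. Among 25 inhibitors of the cell cycle and quiescence genes, 1 changed, against 7.3% of all genes. Cdkn1c, which encodes an inhibitor of cyclin-dependent kinases of the Kip family, fell to 420.4, 373 and 369 CPM in Apex, against 542, 488 and 518 CPM in OR, a change of -0.41 (SE 0.10, adjusted p = 0.0304).

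Some interferon-induced genes were higher in Apex as well. Of 39 antiviral effectors and sensors tested, 10 rose and 0 fell, with a median log2 fold change of 0.22. Of 23 GTPases and chemokines induced by interferon-gamma, 4 rose and 0 fell, with a median of 0.32. Over all genes 3.04% were called higher and 4.26% lower. Among the called members the changes ran between 0.44 and 0.92 on the log2 scale, against 0.90 to 1.64 among the called mitotic genes. Both ranges cover only members that passed the test, so that they do not measure how far the whole lists differ. Every Apex library lay above every OR library in 19 of the 39 and in 8 of the 23, as in 14.6% of all genes. The summed levels overlapped, at 5342 to 6073 CPM in Apex and 5169 to 5837 CPM in OR for the effectors and sensors, and at 2419 to 4047 CPM in Apex and 2099 to 2980 CPM in OR for the interferon-gamma genes.

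The called sensors bind viral RNA. Ddx58, which encodes RIG-I, had 77.4, 77.0 and 73.1 CPM in Apex and 50.4, 57.1 and 52.1 CPM in OR, a change of 0.51 (SE 0.10, edgeR adjusted p = 0.0155). Ifih1, which encodes MDA5, changed by 0.50, and Ddx60, a helicase whose promoter holds the 2 ISRE cores printed above, had 20.9, 22.1 and 21.2 CPM in Apex and 14.9, 14.3 and 13.6 CPM in OR, a change of 0.58 (SE 0.13, adjusted p = 0.0234). Among the effectors, Eif2ak2, the kinase PKR that halts translation, had 73.2, 61.0 and 65.0 CPM in Apex and 36.9, 35.1 and 43.0 CPM in OR, a change of 0.79 (SE 0.12, adjusted p = 0.0128). Ifi44 had 71.1, 60.7 and 60.5 CPM in Apex and 37.6, 37.6 and 40.9 CPM in OR, a change of 0.73 (SE 0.11, adjusted p = 0.0128). Within each of these genes the spread among the 3 libraries of a region was smaller than the gap between the regions. Ifit2, which binds foreign RNA, rose by 0.62, Herc6, a ligase that attaches ISG15, by 0.62, Parp14 by 0.55, Oas2, a sensor of double-stranded RNA, by 0.55 and Rsad2, the antiviral enzyme viperin, by 0.44.

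Among the GTPases, which attack the vacuoles and membranes of intracellular pathogens, Gvin1 had 276, 192 and 199 CPM in Apex and 123, 115 and 115 CPM in OR, a change of 0.92 (SE 0.14, edgeR adjusted p = 0.0128). Apex 1 was the highest library and the OR libraries were close together. Gbp7 had 237, 213 and 199.6 CPM in Apex and 129.7, 121 and 147 CPM in OR, a change of 0.71 (SE 0.11, adjusted p = 0.0128). Gbp6 rose by 0.67 and Gbp9 by 0.54. Genes of the Gbp family are close copies of each other, and so are those around Gvin1, so that reads may have been split among them in the authors' counting.

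**Figure D4:**
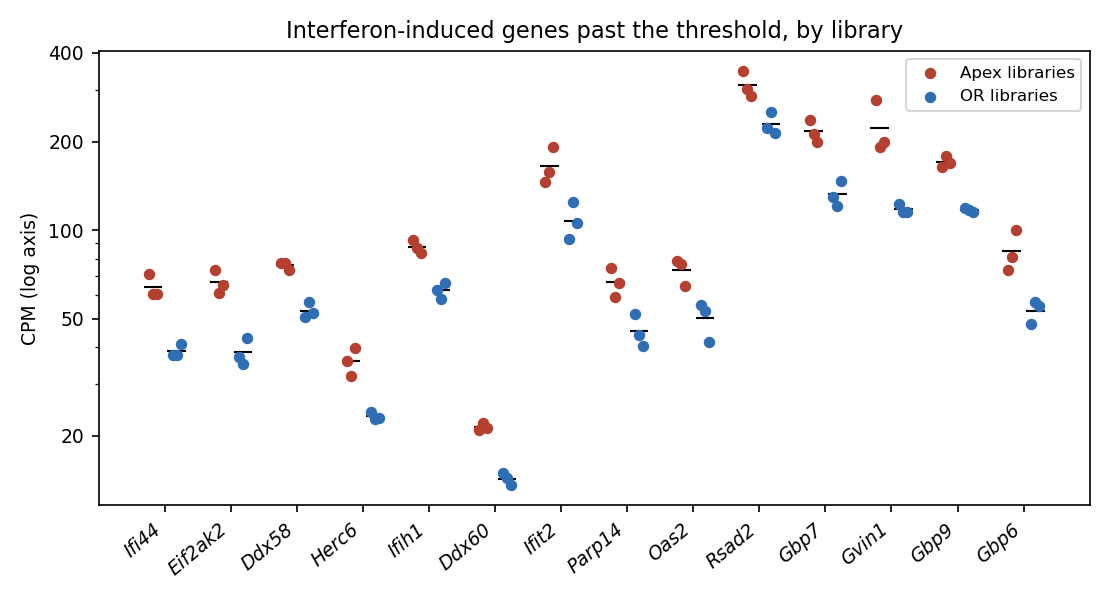
CPM on a log axis for the called interferon-induced genes, 1 point per library, Apex in red on the left and OR in blue on the right of each pair, with a bar at the mean. No gene overlaps between the regions, which holds for every called gene. Rsad2 lies at 286 to 346 CPM in Apex and 213 to 253 CPM in OR.

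With length offsets the median of the effectors and sensors was 0.29 and that of the interferon-gamma genes 0.23. At an unadjusted p under 0.05, 17 of 39 and 8 of 23 members were then higher in Apex and 0 lower. Over all genes 5.58% were higher and 4.5% lower. The number of effectors and sensors called was 5 without Apex 1, 0 without Apex 2, 12 without Apex 3, 4 without OR 1, 5 without OR 2 and 0 without OR 3. That of the interferon-gamma genes was 5, 0 and 5 without Apex 1, 2 and 3, and 3, 5 and 0 without OR 1, 2 and 3. With length offsets, and with all 12 heart libraries, it was 0 in both lists. Not every effector lay higher in Apex: 7 of the 39 had a log2 fold change below 0 as measured, and 5 with length offsets. The following 3 were chosen after their values were seen, and none passed the test. Isg15, the ubiquitin-like protein, had 100.1, 130.3 and 229 CPM in Apex and 139, 219 and 193 CPM in OR. Ifitm3, a membrane protein that blocks viral entry, had a log2 fold change of -0.27 as measured and 0.20 with length offsets, and Bst2, which tethers budding viruses, -0.27 and 0.15.

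Upstream of these genes, Jak2, the kinase of several cytokine receptors, rose by 0.63 and Stat2, a transcription factor of the type I response, by 0.41, as 2 of 19 interferon signalling genes. Of 22 Toll-like receptor and adaptor genes, 1 rose. This was Tlr4, the receptor for bacterial lipopolysaccharide, at 31.5, 27.8 and 19.7 CPM in Apex and 12.5, 15.4 and 13.8 CPM in OR, a change of 0.92 (SE 0.18, edgeR adjusted p = 0.0176). Apex 3 was the lowest Apex library but lay above all OR libraries. With length offsets the log2 fold change of Tlr4 was 0.69. Ifi213, a gene of the interferon-inducible HIN family, rose by 1.14 and Slfn8, a Schlafen gene, by 1.21, and both are among the largest changes that the naming rule admits.

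Antigen processing split. Of 22 MHC class I and processing genes, 1 rose and 5 fell, against 3.04% and 4.26% of all genes. Those that fell encode parts of the immunoproteasome and its activator, which are induced by interferon-gamma, namely Psmb8, Psmb9, Psmb10, Psme1 and Psme2, with log2 fold changes between -0.65 and -0.43. Psmb10 had 128, 131 and 106 CPM in Apex and 192, 186 and 196 CPM in OR (SE 0.10, edgeR adjusted p = 0.0128). All 5 have short transcripts, of 686 to 1162 bases, within the shortest 20% of genes, of which 19.6% were called lower. With length offsets their changes lay between -0.39 and -0.07. Erap1, the enzyme that trims peptides for class I, rose by 0.49. The number that fell was 5, 0 and 4 without Apex 1, 2 and 3 and 4, 3 and 0 without OR 1, 2 and 3.

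Genes of the cytosolic ribosome were lower in Apex throughout. Of 46 large subunit genes, 38 fell and 0 rose, with a median log2 fold change of -0.56, and of 34 small subunit genes, 28 fell and 0 rose, with a median of -0.58. Both counts stand against 4.26% of all genes called lower. Every Apex library lay below every OR library in all 46 large subunit genes and in 31 of the 34 small subunit genes, as in 15.2% of all genes. Their summed level was 16142 to 17673 CPM in Apex and 22014 to 25402 CPM in OR for the large subunit, and 10363 to 11567 CPM in Apex and 14511 to 17453 CPM in OR for the small one.

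Rpl18 had 342, 340.3 and 348 CPM in Apex and 569.6, 521 and 573 CPM in OR, a change of -0.69 (SE 0.09, edgeR adjusted p = 0.0128). The libraries of each region lay close together, with OR 2 the lowest of its region. Rpl13a and Rpl11 fell by 0.66 each, and Rplp1, of the stalk that binds elongation factors, by 0.57. Ribosomal protein genes have many processed pseudogenes, with which reads can be shared.

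These transcripts are among the shortest measured, with a median effective length of 621 bases for the large and 434 bases for the small subunit. With length offsets the medians were -0.10 and -0.11, and 11 of 46 and 8 of 34 genes were lower in Apex at an unadjusted p under 0.05, as were 4.5% of all genes. Rplp1, at 279 bases, had a change of 0.02 with offsets. Rps20, for which the files imply a length of 3568 bases, had a change of -0.67 as measured and -0.77 with offsets. The number of large subunit genes called was 29 without Apex 1, 0 without Apex 2, 36 without Apex 3, 23 without OR 1, 39 without OR 2 and 0 without OR 3, and that of the small subunit was 20, 0 and 29 without Apex 1, 2 and 3 and 17, 27 and 0 without OR 1, 2 and 3. The summed large subunit level, scaled over the 12 heart libraries, ran from 10746 to 26167 CPM among the 3 VS libraries alone, beyond the Apex and the OR libraries on both sides.

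Translation factors were mixed, with 1 of 40 higher and 7 lower, against 3.04% and 4.26% of all genes. Their median log2 fold change was -0.14. Of the subunits of eIF3, which loads the small ribosomal subunit onto mRNA, Eif3a rose by 0.54 at 5480 bases, while Eif3k and Eif3i fell by 0.52 and 0.57 at 699 and 985 bases. With length offsets these 3 changes were 0.34, -0.13 and -0.27. Of 31 proteasome genes, 10 fell and 0 rose, with a median of -0.28 as measured and -0.04 with length offsets. Their median length was 1236 bases, within the shortest 20% of genes, of which 19.6% were called lower. Psmb6, which encodes a catalytic subunit, had 137, 145 and 145 CPM in Apex and 204, 209 and 229.7 CPM in OR, a change of -0.59 (SE 0.09, edgeR adjusted p = 0.0128). The number of proteasome genes called was 7, 0 and 7 without Apex 1, 2 and 3 and 7, 5 and 0 without OR 1, 2 and 3, and that of translation factors that fell was 4, 0 and 7 and 3, 5 and 0.

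Nuclear genes of the respiratory chain followed the ribosomal ones. In complex I, which takes electrons from NADH, 26 of 37 genes fell and 0 rose, with a median log2 fold change of -0.59. In complexes II and III 7 of 14 fell (median -0.45), in complex IV 11 of 15 (median -0.64), in the ATP synthase 13 of 16 (median -0.54) and among mitochondrial ribosomal proteins 29 of 76 (median -0.40), and none rose in these lists. Over all genes 4.26% were called lower, and in the shortest 20%, where the median lengths of these lists lie, 19.6%. Of 36 genes of fatty acid oxidation and the citrate cycle, 6 fell and 0 rose, with a median of -0.17. Ndufa11, of the complex I membrane arm, had 73.8, 80.7 and 81.6 CPM in Apex and 129, 125 and 150.4 CPM in OR, a change of -0.78 (SE 0.10, edgeR adjusted p = 0.0128). Cox6a1, of complex IV, had 329, 346 and 353 CPM in Apex and 579, 535 and 586 CPM in OR, a change of -0.72 (SE 0.09, adjusted p = 0.0128). Atp5g1, of the rotor ring of the ATP synthase, had 149, 147 and 173 CPM in Apex and 274, 252 and 260.2 CPM in OR, a change of -0.75 (SE 0.10, adjusted p = 0.0128). In all 3 genes the regions were well separated. Ndufb7, Cox4i1, Uqcr11, Sdhb and Mrps21 fell by 0.75, 0.63, 0.72, 0.52 and 0.73, Mrpl23 by 0.82, and Etfb and Acaa2 of fatty acid oxidation by 0.69 and 0.52.

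With length offsets these medians were -0.13 for complex I, -0.13 for complexes II and III, -0.12 for complex IV, -0.11 for the ATP synthase, -0.09 for the mitochondrial ribosome and -0.08 for fatty acid oxidation and the citrate cycle. At an unadjusted p under 0.05 there were then 11 of 37 complex I genes lower in Apex and 12 of 76 of the mitochondrial ribosome, and 0 higher in either list. Ndufa11, to which the files give a length of 2700 bases, kept a change of -0.79, and it was 1 of the 2 genes with the smallest adjusted p, 0.0974. The number of complex I genes called was between 23 and 25 without Apex 1, Apex 3, OR 1 or OR 2, and 0 without Apex 2 and without OR 3. Without those same 2 libraries it was 0 in the other lists of this group too. Without Apex 1, Apex 3, OR 1 and OR 2 in turn it was 15, 17, 9 and 14 for the mitochondrial ribosome, 8, 13, 8 and 12 for the ATP synthase, 7, 12, 7 and 12 for complex IV, 5, 8, 5 and 5 for complexes II and III and 3, 5, 3 and 3 for fatty acid oxidation and the citrate cycle. Genes encoded in the mitochondrial genome were not analysed here.

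**Figure D5:**
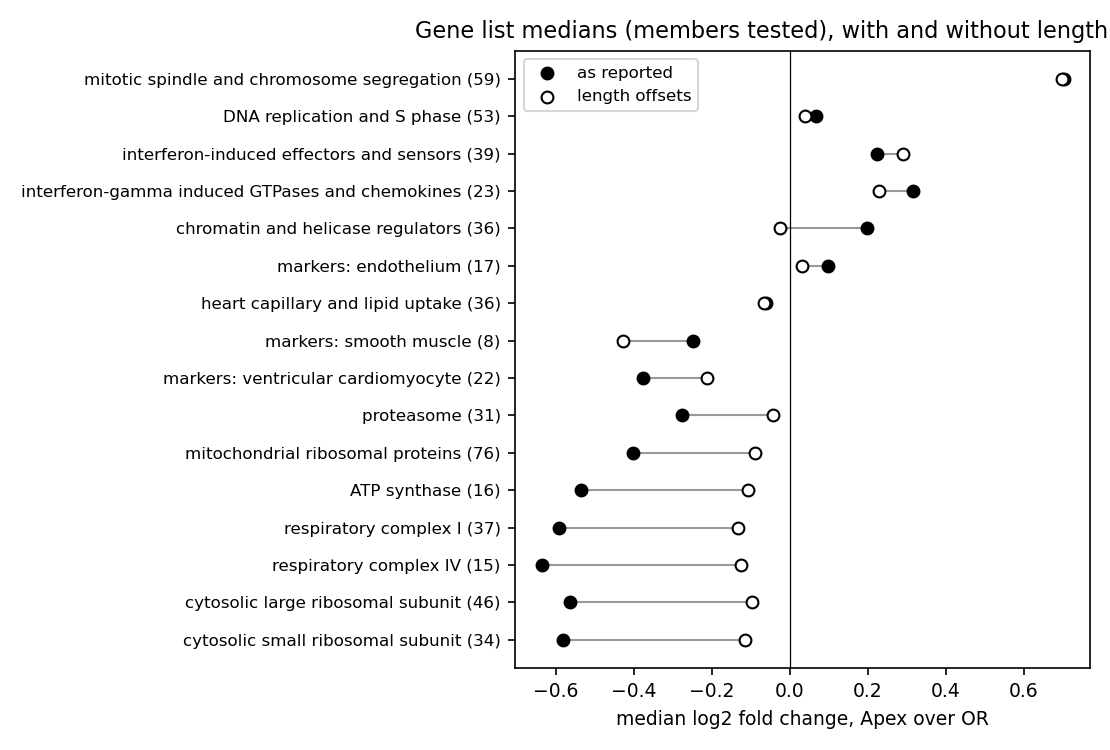
Median log2 fold change of Apex over OR for selected gene lists, with the number of members tested in brackets, as measured (filled) and with length offsets (open). The mitotic list stays at 0.70 and the interferon lists stay above 0, between 0.22 and 0.32, while the 2 cytosolic ribosomal lists, complexes I and IV and the ATP synthase lie between -0.64 and -0.54 as measured but between -0.13 and -0.10 with offsets.

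Of 36 chromatin and helicase regulators tested, 6 rose and 0 fell, against 3.04% and 4.26% of all genes, with a median log2 fold change of 0.20. Their median length was 8968 bases, within the longest 20% of genes, of which 9.77% were called higher. Chd1, a remodeller of transcribed genes, had 49.2, 50.4 and 53.3 CPM in Apex and 31.6, 35.1 and 32.7 CPM in OR, a change of 0.62 (SE 0.10, edgeR adjusted p = 0.0128). The histone methyltransferases Ash1l and Setd2 rose by 0.50 and 0.52, the remodeller Atrx by 0.62, and Baz2b and Arid2 by 0.47 and 0.49. With length offsets the list's median was -0.02, with 15 members above 0 and 21 below. The list had 1 gene called without Apex 1, 0 without Apex 2, 6 without Apex 3, 3 without OR 1, 1 without OR 2 and 0 without OR 3.

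Among genes that give heart capillaries their function, 2 of 36 rose and 5 fell, against 3.04% and 4.26% of all genes. The median log2 fold change was -0.06. Gpihbp1, which anchors lipoprotein lipase on the capillary wall, fell to 1005, 835 and 844 CPM in Apex, against 1359.9, 1266 and 1224 CPM in OR, a change of -0.52 (SE 0.11, edgeR adjusted p = 0.0203). Fabp5, a fatty acid binding protein, had 301, 324 and 326 CPM in Apex and 434, 429 and 493 CPM in OR, and Car4, a carbonic anhydrase of the capillary surface, had 461, 397 and 416 CPM in Apex and 642, 625 and 543 CPM in OR. Both changed by -0.51. Tcf15, a transcription factor that with its partner MEOX drives fatty acid uptake, fell by 0.44, and G0s2, an inhibitor of lipolysis, by 1.13. These 5 transcripts have 660 to 1197 bases, within the shortest 20% of genes, of which 19.6% were called lower. With length offsets their changes were between -0.74 and -0.09. Btnl9 and Myadm, which rose, changed by 0.45 and 0.52 and by 0.47 and 0.49 with offsets. The number that fell was 3 without Apex 1, 0 without Apex 2, 6 without Apex 3, 2 without OR 1, 1 without OR 2 and 0 without OR 3.

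Genes of vessel identity were called at a share near that of all genes tested, 7.3%, in small lists. Nrp1, a co-receptor of VEGF that guides sprouts, was the 1 of 25 arterial genes that rose, at 2003, 1732 and 1589 CPM in Apex and 1232, 1235 and 1233 CPM in OR, a change of 0.52 (SE 0.11, edgeR adjusted p = 0.0206). The OR libraries agreed closely and the Apex libraries spread. Kdr, the main VEGF receptor, had 2275, 2372 and 2020.0 CPM in Apex and 1504, 1955 and 1633 CPM in OR, without overlap, and did not pass (log2 fold change 0.39, adjusted p = 0.0839). Of 17 venous genes 1 fell, the matrix protein gene Mgp (-0.85), and of 15 endocardial genes 1 fell, Cytl1 (-0.85). Of 26 tip cell genes, those of sprouting endothelium, 2 rose. These were the basement membrane genes Nid2 and Lamb1, with changes of 0.68 and 0.65. Nid2 had 244, 212 and 205 CPM in Apex and 149.5, 136 and 126 CPM in OR. Calcrl, the receptor for adrenomedullin, rose by 0.74, and Adamts5, a protease of matrix proteoglycans, by 0.75.

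In the BMP and TGF-beta pathway, 3 of 35 genes rose and 2 fell. The receptors Bmpr2 and Tgfbr1 rose by 0.45 and 0.56, and Skil, a repressor of SMAD targets, by 0.76. Id1 and Id3, direct BMP targets that encode inhibitors of bHLH factors, fell. Id1 had 445, 621 and 678 CPM in Apex and 916, 958 and 991 CPM in OR, a change of -0.72 (SE 0.14, edgeR adjusted p = 0.0196), with Apex 1 the lowest, and Id3 changed by -0.43. With length offsets the 3 that rose had changes between 0.20 and 0.55, Id1 -0.36 and Id3 -0.07. Of 28 Notch genes, 1 rose, the sheddase Adam17 (0.43). Lrrn1, which encodes a membrane protein with leucine-rich repeats, was the 1 of 29 guidance genes that rose, at 17.1, 8.49 and 8.66 CPM in Apex and 5.11, 2.72 and 3.10 CPM in OR, a change of 1.66 (SE 0.34, adjusted p = 0.0267). Apex 1 was the highest library and OR 1 the highest of its region.

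Of 23 circadian clock genes, 2 rose and 0 fell, with a median log2 fold change of -0.08. Cry1, a repressor of the clock whose promoter holds the E-box printed above, had 38.9, 35.7 and 40.7 CPM in Apex and 22.9, 26.7 and 21.7 CPM in OR, a change of 0.69 (SE 0.12, edgeR adjusted p = 0.0137) and 0.64 with length offsets. Clock, which encodes the activating partner of BMAL1, had 33.5, 33.3 and 30.8 CPM in Apex and 19.9, 21.5 and 21.6 CPM in OR, a change of 0.63 (SE 0.11, adjusted p = 0.0142) and 0.38 with offsets. Neither gene overlapped between the regions, which held for all 956 called genes and for 29.7% of all genes tested. The labels give no time of day for any library.

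In hypoxia and glycolysis, Hif1a, the oxygen-regulated transcription factor, rose by 0.57 and Ldhb, a lactate dehydrogenase subunit, fell by 0.61, as the 2 of 32 that changed. Of 28 genes of iron and mitochondrial carriers, 2 fell. Slc25a28, which carries iron into mitochondria, had 12.9, 12.9 and 16.0 CPM in Apex and 29.6, 26.6 and 25.2 CPM in OR, a change of -0.96 (SE 0.14, edgeR adjusted p = 0.0128) and -0.74 with length offsets. Iscu, the scaffold for iron-sulfur clusters, fell by 0.39, and its change with offsets was -0.02. In cholesterol synthesis and uptake Hmgcs1, an early enzyme of the pathway, rose by 0.51 and Ebp, a late one, fell by 0.47, as the 2 of 29 that changed.

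Markers of other cells were read in the same libraries, and their part in the results above was not tested. Some heart muscle genes were lower in Apex. Of 22 ventricular cardiomyocyte markers 6 fell and 0 rose, against 4.26% and 3.04% of all genes. The median log2 fold change was -0.38 as measured and -0.21 with length offsets, and 4 of the 22 lay above 0 as measured. The list summed to 1674 to 2196 CPM in Apex and 2356 to 2970 CPM in OR. Tnni3, a troponin, had 119, 131 and 159.5 CPM in Apex and 269, 202 and 245 CPM in OR, a change of -0.80 (SE 0.14, edgeR adjusted p = 0.0137). Myl2, Mb, Tnnc1, Cox6a2 and Myl3 fell by 0.91, 0.72, 0.70, 0.65 and 0.66. These 6 transcripts have 489 to 860 bases, within the shortest 20% of genes, of which 19.6% were called lower. The number that fell was 5, 0 and 9 without Apex 1, 2 and 3 and 4, 8 and 0 without OR 1, 2 and 3. Of 8 smooth muscle markers, 2 fell. Tagln had 89.1, 75.1 and 80.1 CPM in Apex and 119.8, 133 and 161 CPM in OR, a change of -0.76, and Acta2, smooth muscle actin, changed by -0.67. Their summed level was 775 to 934 CPM in Apex and 993 to 1063 CPM in OR. Myl9, a myosin light chain of contractile cells, fell by 0.81 and is not on that list. The smooth muscle median was -0.25 as measured and -0.43 with length offsets.

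Globin genes, which mark red blood cells, lay lower in Apex but did not pass. Hba-a2 had 625, 1206 and 1453 CPM in Apex and 2031, 2103 and 1883 CPM in OR (log2 fold change -0.87, edgeR adjusted p = 0.149). The 8 erythrocyte markers with counts, of which 7 were tested, summed to 1306 to 2987 CPM in Apex and 4052 to 4485 CPM in OR. Of the endothelial markers, 1 of 17 changed. Egfl7, a secreted endothelial protein, fell to 849, 942 and 926 CPM in Apex, against 1316, 1091 and 1296 CPM in OR, a change of -0.45 (SE 0.11, adjusted p = 0.0347) and -0.22 with length offsets. Wt1, a transcription factor of the epicardium that some endothelial cells also express, rose by 0.60, as the 1 of 4 epicardial markers tested that changed.

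Transcripts of some neutrophil granule genes were found in every Apex library and in no OR library, but this did not hold for all such genes. Ctsg, a granule protease, had 1, 1 and 3 counts in Apex and 0, 0 and 2 counts in OR. Mpo, which encodes myeloperoxidase, had 33, 22 and 23 counts in Apex and 0, 0 and 0 counts in OR, at least 23.5-fold higher in Apex when OR is set at 3 counts over the group. Elane, neutrophil elastase, had 20, 6 and 10 counts in Apex and 0 in each OR library, at least 10.8-fold higher by the same floor, and Prtn3, another granule protease, had 2, 5 and 5 counts in Apex and 0 in each OR library, at least 3.61-fold higher. Elane and Prtn3 did not pass the filter on low counts, and Mpo passed it only through the Apex libraries, where it is high, so that no p is given. Mpo and Elane also had 0 counts in all 6 LV and VS libraries. Chil3, a secreted protein of neutrophils and macrophages, had 175, 126 and 127 counts in Apex and 0, 15 and 3 counts in OR. It was admitted by its Apex libraries in the same way as Mpo, so that no test result is given.

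The sum over all 16 neutrophil markers was 21.4 to 23.7 CPM in Apex and 3.58 to 12.7 CPM in OR. Markers of mature neutrophils were less even: S100a8 had 77, 81 and 111 counts in Apex and 0, 41 and 12 in OR, and did not pass, and Cxcr2 had 44, 41 and 51 counts in Apex and 52, 54 and 71 in OR. Csf3r, also on the list, had 9, 34 and 13 counts in Apex and 8, 15 and 13 in OR. The later granule genes Ngp and Ltf did not pass either, and OR 2 held most of their OR counts, with Ngp at 115, 140 and 109 counts in Apex and 0, 81 and 0 in OR and Ltf at 51, 74 and 48 counts in Apex and 17, 78 and 18 in OR. Ly6g, a defining surface marker, had 0 counts in every Apex library and 0, 2 and 0 in OR. Sums of this size limit any statement on these cells, and a count of 0 covers counting error only. Macrophage markers summed to 26.5 to 39.5 CPM in Apex and 21.6 to 34.4 CPM in OR, and common leukocyte markers to 11.9 to 15.7 CPM in Apex and 9.59 to 12.8 CPM in OR, with 0 calls in either list.

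The other heart regions place these levels, on a scaling over all 12 libraries. Mki67 ran from 21.6 to 23.2 CPM in Apex, 8.40 to 12.04 in LV, 2.18 to 25.2 in VS and 5.11 to 10.3 in OR, so that 1 VS library exceeded all Apex libraries. Top2a ran from 19.97 to 27.3 CPM in Apex, 5.02 to 27.3 in LV, 6.13 to 16.8 in VS and 7.29 to 10.96 in OR. Cry1 set OR apart, with 36.1 to 41.3 CPM in Apex, 39.5 to 47.0 in LV, 34.6 to 37.7 in VS and 22.3 to 27.2 in OR. Chil3 set Apex apart, with 4.43 to 6.49 CPM in Apex and at most 0.396 in LV, 0.105 in VS and 0.585 in OR. No test was made on these 4 regions here.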

How the data were processed

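The labels' protocols describe full-length cDNA made from poly(A) RNA with oligo(dT) primers, PCR amplification and paired 100 bp reads. Per the submitters' processing notes the build is mm10; the aligner, counting program and annotation are not given in the sources used here. A deposited heart table holds, per the file headers, TPM and read counts for 17513 genes; going by the values, its counts are the authors' expected counts, 82.06% to 82.56% of them exactly whole in these 6 libraries, and they were rounded. The deposited TPM values, scaled by the authors per the file headers, were used only to recover effective lengths from counts over TPM, put in bases with 1899 single-transcript genes of GENCODE M21.

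Counts of the 6 libraries were filtered with edgeR's filterByExpr, scaled by TMM and tested with edgeR 4.0.16 in R 4.3.3 (robust quasi-likelihood F test, 1 mean per region), with Benjamini-Hochberg adjustment over all genes tested and a threshold of 0.05. SE was taken from the test, as absolute log2 fold change divided by the root of F. Length offsets are loess trends (span 0.5) of each library's counts on log effective length. Alternatives used voom of limma 3.58.1, DESeq2 1.42.0, other scalings and filters, a replicate block, all 12 heart libraries and the omission of each library. The workflow was tested on simulated data.

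The 6 libraries were set by label, but the genes named and the 56 gene lists were chosen with earlier results of these data known. Named are up to 12 genes in each direction by size (adjusted p under 0.05, log2 fold change of at least 1, at least 5 CPM, no overlap), up to 10 by p (at least 20 CPM), up to 6 called members of a list described by smallest p (others only in counts), and Mki67, Top2a, Pecam1, Cdh5, Kdr, Ptprc, Cry1, Tlr4, Slc25a28, Chil3 and Mpo; unnamed models and pseudogenes were only counted. Called members beyond these 6, and Rps20, were named after their values were seen. Every count reported is subject to the depth of its library, and floors cover counting error only. Some items are not reported here.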

Additional observations from a re-analysis of the deposited data

How the results depend on the processing

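The total of 956 calls (398 higher and 558 lower in Apex) kept within 1.5 times its size under a fit without robust dispersion (746), RLE scaling (926), upper-quartile scaling (943), library size alone (805), no filter on low counts (1055), at least 5 CPM in 3 libraries (1111), DESeq2 (1401) and TMM from genes of middling length (1181). It was 1444 with voom and sample quality weights (639 higher), and DESeq2 called 625 higher. With library size alone 331 genes were lower and 58.9% of calls were higher, against 41.6% as reported, and with TMM from genes of middling length 211 were higher and 970 lower, or 17.9% higher. With all 12 heart libraries the counts were 0, 0 and 0 in total, higher and lower. Length offsets also gave 0, 0 and 0. Length offsets from GENCODE lengths gave 468 (231 higher and 237 lower) and GC offsets 438 (93 and 345); these alternatives and the scaling on middling lengths were chosen after seeing the data. Leaving out 1 library gave 0 to 881 calls in total, 0 to 378 higher and 0 to 503 lower. With a length offset the sign turned for Isg15 (0.15), Bst2 (0.15), Ifitm3 (0.20), Cdh5 (-0.034) and Rplp1 (0.016). The causes were not tested, beyond the smaller number of samples in each omission.

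The replicate numbers are shared by both regions. With the number as a replicate block edgeR called 1352 genes, 608 higher and 744 lower, and with the block and length offsets 0 in total, 0 higher and 0 lower, at 1470 with an unadjusted p under 0.05; signs then turned for Isg15 (0.11), Bst2 (0.15), Ifitm3 (0.21), Cdh5 (-0.036) and Rplp1 (0.015). Deviations of same-numbered libraries correlated at 0.26, 0.0264 and 0.0225. The labels do not say whether a shared number means a shared animal or batch, and these few values cannot decide it. Same-numbered libraries correlated best with each other for number 1 and not for numbers 2 and 3.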

Other observations

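Other endothelial and stress programmes gave no call in edgeR's quasi-likelihood test, in which 7.3% of all genes passed. In lists as small as those of this paragraph, 0 calls do not show that a programme was unchanged. Among shear stress and mechanosensing genes 0 of 26 passed (median log2 fold change of Apex over OR 0.10), among leukocyte adhesion genes 0 of 22 (0.16), among heat shock genes and chaperones 0 of 31 (-0.07), among immediate early genes 0 of 28 (-0.19), among Hox and positional genes 0 of 29 (-0.17) and among MHC class II genes 0 of 6 (-0.14, and 0.13 with length offsets). The summed level of the immediate early genes spanned 21949 to 59409 CPM in Apex and 35861 to 64702 CPM in OR, so that the regions overlapped. Of 16 VEGF and angiopoietin genes, 1 rose, Nrp1, and of 21 nuclear-retained and splicing genes, 1 rose, Rbm25 (0.45). Markers of cardiac fibroblasts, pericytes, platelets, lymphatic endothelium, atrial cardiomyocytes, nerve and glia, and T, NK and B cells gave 0 calls. Pericyte markers summed to 1112 to 2259 CPM in Apex and 1069 to 1613 CPM in OR, and fibroblast markers to 872 to 1523 CPM in Apex and 861 to 2235 CPM in OR.

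A few further myeloid genes, chosen because their values were seen to be higher in Apex, do not stand for myeloid cells as a group. Of the 9 macrophage markers tested, 0 passed, with 5 log2 fold changes above 0 and 4 below. Ctss, a cathepsin of antigen-presenting cells, had 81, 66 and 83 counts in Apex and 28, 25 and 22 in OR (log2 fold change 1.45, edgeR adjusted p = 0.0345), and Ccl6, a chemokine of myeloid cells, had 69, 38 and 46 counts in Apex and 16, 12 and 14 in OR (1.70, adjusted p = 0.0445). Lilrb4a, an inhibitory receptor of myeloid cells, had 11, 12 and 32 counts in Apex and 0, 1 and 3 in OR, and was admitted to the test only through its Apex libraries. Among the largest changes that the naming rule admits were also Cysltr1, a leukotriene receptor, at 1.18 and Plac9a at -1.14. Phip, a chromatin reader, rose by 0.69 and Gstt2, a glutathione transferase, fell by 0.80, both among the 10 smallest p in their direction.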
